A study of Homo sapiens and Mus musculus with 47 samples.

Results

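The genes described here are 8 that mark sympathetic neuroblasts, the neural crest-derived precursors of sympathetic neurons: Phox2a, Hand2, Gata2, Gata3, Isl1, Th, Dbh and Mycn. They were taken by gene symbol, as 8 of the 55401 genes in each of the mouse count tables, and all were found once. The data come from Chrom-seq, a proximity labelling assay. A protein domain that reads a histone mark is joined to repeated peptide tags. A single-chain antibody that binds these tags brings in APEX2, an engineered peroxidase, which biotinylates RNA close by for streptavidin pulldown. The reader here was the PHD domain of mouse TAF3, which binds H3K4me3, the mark of active promoters. Control cells carried the tag array with no reader, and all groups had the APEX2 fusion, 48 h of expression, biotin-aniline (500 µM, 30 min) and a pulse of hydrogen peroxide (1 mM, 1 min). There were 4 groups of 3 libraries, namely NIH3T3 control, NIH3T3 TAF3, Neuro-2a control and Neuro-2a TAF3. NIH3T3 is an established fibroblast line from mouse embryo, and Neuro-2a is an established mouse neuroblastoma line. Every library is RNA recovered by biotin, so a level in a control library is that of RNA labelled without a reader and not of total RNA.

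Phox2a is a homeodomain factor of the sympathetic programme. Hand2, Gata2, Gata3 and Isl1 act with it to switch on noradrenergic genes. Tyrosine hydroxylase (Th) makes L-DOPA from tyrosine, the rate-limiting step of catecholamine synthesis, and dopamine beta-hydroxylase (Dbh) turns dopamine into noradrenaline. Mycn is the MYC family member whose amplification marks high-risk human neuroblastoma.

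On mm10, the genes lie in the tables at chr7:101818313-101822726 (Phox2a, plus strand), chr6:88193891-88207032 (Gata2, plus), chr2:9857078-9890034 (Gata3, minus), chr13:116298281-116309689 (Isl1, minus), chr7:142892752-142931128 (Th, minus), chr2:27165233-27183200 (Dbh, plus) and chr12:12936093-12941914 (Mycn, minus). Since the reader targets a promoter mark, the windows from 250 bases before to 50 bases after the RefSeq gene start (GRCm38.p6, the same build as mm10) were compared. The 2 enzyme genes and 2 of the transcription factor genes are shown because they span the range from CpG-poor to CpG-rich. Each is written 5′ to 3′ on the strand of the gene, and capitals mark CpG dinucleotides.
Phox2a, chr7:101818063-101818362: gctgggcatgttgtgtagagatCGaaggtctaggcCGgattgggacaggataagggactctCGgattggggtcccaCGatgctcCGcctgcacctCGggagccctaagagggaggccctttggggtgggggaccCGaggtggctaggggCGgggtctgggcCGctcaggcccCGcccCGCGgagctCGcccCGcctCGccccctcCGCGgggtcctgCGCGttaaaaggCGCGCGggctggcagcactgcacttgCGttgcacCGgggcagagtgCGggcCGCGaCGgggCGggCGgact
Gata2, chr6:88193641-88193940: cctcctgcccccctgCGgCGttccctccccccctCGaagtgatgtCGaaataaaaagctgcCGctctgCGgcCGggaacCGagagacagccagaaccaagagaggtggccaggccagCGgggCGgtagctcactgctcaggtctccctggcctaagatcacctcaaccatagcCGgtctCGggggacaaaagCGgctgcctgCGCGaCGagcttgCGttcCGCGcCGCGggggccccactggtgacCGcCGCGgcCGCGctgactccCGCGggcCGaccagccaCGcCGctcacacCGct
Th, chr7:142899946-142900245: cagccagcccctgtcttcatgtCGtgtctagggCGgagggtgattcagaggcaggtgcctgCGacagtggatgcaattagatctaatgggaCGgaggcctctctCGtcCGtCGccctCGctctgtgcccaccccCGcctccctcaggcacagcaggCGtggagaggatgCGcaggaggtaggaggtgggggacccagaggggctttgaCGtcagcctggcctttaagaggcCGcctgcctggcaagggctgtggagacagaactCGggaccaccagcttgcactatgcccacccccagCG
Dbh, chr2:27165257-27165556: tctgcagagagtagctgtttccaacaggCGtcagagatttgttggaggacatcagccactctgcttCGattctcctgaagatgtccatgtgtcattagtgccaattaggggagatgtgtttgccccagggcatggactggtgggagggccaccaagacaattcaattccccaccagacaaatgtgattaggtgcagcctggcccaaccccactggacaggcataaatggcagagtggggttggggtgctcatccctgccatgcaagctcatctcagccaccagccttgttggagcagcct

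The Phox2a and Gata2 windows held 30 and 32 CpG, the Th window held 15, and the Dbh window held 2. The median over 21765 protein-coding windows of the same length was 9, and 22.2% of them had as few CpG as Dbh. Among the other members, Isl1 had 37 CpG, Hand2 17, Mycn 14 and Gata3 6. The Gata3 and Th windows lie inside the counted spans. Their RefSeq starts are 9887953 and 142899995, and the spans begin at 9890034 and 142931128 on the minus strand. The cyclic AMP response element TGACGTCA, which is its own reverse complement, occurred in the Th window with its first base at -45 and in no other member, against 2.22% of all windows. The MYC E-box CACGTG was in none of the 8 windows, against 7.54% of all. The GC box GGGCGG, searched on both strands, was in the windows of Phox2a, Hand2, Gata2, Th and Mycn, against 40.2% of all windows. Both strands were also searched for AGATAA, found in the Hand2 and Isl1 windows and 11.1% of all, TATAAA, found in the Gata3 window and 14.3% of all, and TAATTA, found in the Hand2 window and 5.46% of all. These are matches of letters only.

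The NIH3T3 libraries held 15797217 to 17558305 counts and the Neuro-2a libraries 10012172 to 13317137. Levels are given as CPM, the counts of a library scaled to a common total, after TMM scaling over the 12 libraries. In that unit 3 counts, taken as the floor, corresponded to 0.175 to 0.281 CPM in a library. Neuro-2a TAF3 replicate 1 stood apart from its group. A chi-square of its counts against those of replicates 2 and 3 came to 36.2 and 41.4 per gene, where every other pair of replicates gave 3.06 to 10.2. The capture results in Neuro-2a are therefore also given without that library. The lines matched their labels by marker lists. The summed level of 10 neuronal markers was 4744 to 4988 CPM in Neuro-2a controls and 22.2 to 23.0 CPM in NIH3T3 controls, and that of 10 fibroblast markers was 39.1 to 49.6 CPM against 2553 to 3077 CPM. Tubb3 had no count in any library, and it lies inside another gene of the same strand. Of 423 protein-coding genes placed in that way, all 423 had no count, so the counting gave such genes no reads. The Schwann cell precursor markers Sox10 and Foxd3 had no count in the Neuro-2a controls. The labels do not say that replicates were separate cultures, so p-values measure the spread between these libraries. Each line has its own count table, and the line cannot be told apart from whatever else differed between the preparations.

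All 8 genes were higher in Neuro-2a than in NIH3T3 in the control libraries, and the libraries of the lines did not overlap for any of them. A gene was called where edgeR's quasi-likelihood test gave an adjusted p below 0.05 together with a log2 fold change of 0.75 or more in either direction. Of 18433 genes tested, 25.2% were called higher in Neuro-2a and 26.5% lower, so the lines differed widely. Over all tested genes the median log2 difference was -0.036. Phox2a, Hand2, Th and Dbh passed the filter on low counts through Neuro-2a alone and so had to differ. The 4 members that passed on NIH3T3 alone were Gata2, Gata3, Isl1 and Mycn, with log2 differences of 3.64 to 5.85. In bulk libraries such as these, fewer cells with a transcript and less transcript in each cell cannot be told apart.

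Phox2a was at 53.2, 55.3 and 62.9 CPM in the Neuro-2a controls and had no count in any NIH3T3 control. That is at least 902-fold higher than the floor of 3 counts over the NIH3T3 group. Hand2, a basic helix-loop-helix factor at chr8:57320983-57324633 on the plus strand, was at 312, 285 and 286 CPM in the Neuro-2a controls and had no count in any of the 6 NIH3T3 libraries, with or without the reader. Its level in the controls was at least 4685-fold above the same floor. Hand2 was thus not detected in the fibroblast line at this depth, while Phox2a had a few counts there with the reader, given below.

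Per kb of exon, Gata2 had the highest level of the members in fibroblasts. Its CPM were 15.0, 18.7 and 13.3 CPM in the NIH3T3 controls and 198, 192 and 201 CPM in the Neuro-2a controls, a log2 difference of 3.65 ± 0.089 (SE, n = 3 against 3, edgeR adjusted p = 1.8e-21). Gata3, the related zinc-finger factor, was at 2.61, 2.38 and 1.32 CPM against 47.7, 50.3 and 49.0 CPM, a log2 difference of 4.54 ± 0.17 (edgeR adjusted p = 1.1e-17). The Gata3 count leaves out reads from the 6500 bases, 19.7% of its span, that it shares on the same strand with 9230102O04Rik. Isl1, a LIM-homeodomain factor, was at 1.76, 1.78 and 0.314 CPM in the NIH3T3 controls and 76.1, 71.9 and 74.9 CPM in the Neuro-2a controls. Its log2 difference was 5.85 ± 0.20 (edgeR adjusted p = 2.3e-18), and NIH3T3 control replicate 3 was the lowest library. Mycn was at 2.18, 2.78 and 2.32 CPM in fibroblasts and 28.9, 33.2 and 28.8 CPM in Neuro-2a, a log2 difference of 3.64 ± 0.17 (edgeR adjusted p = 1.0e-15).

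Per kb of exon, the enzymes had the lowest levels of the members in Neuro-2a. Th was at 4.91, 7.95 and 6.07 CPM in the Neuro-2a controls and had no count in the NIH3T3 controls, so it was at least 98.9-fold above the floor. Dbh was at 6.85, 7.17 and 6.87 CPM in the Neuro-2a controls. In the NIH3T3 controls it had 3 counts, all in replicate 3, which gave a ratio of 110-fold with an exact 95% interval of 37.3 to 538 that covers counting error only.

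**Figure D1:**
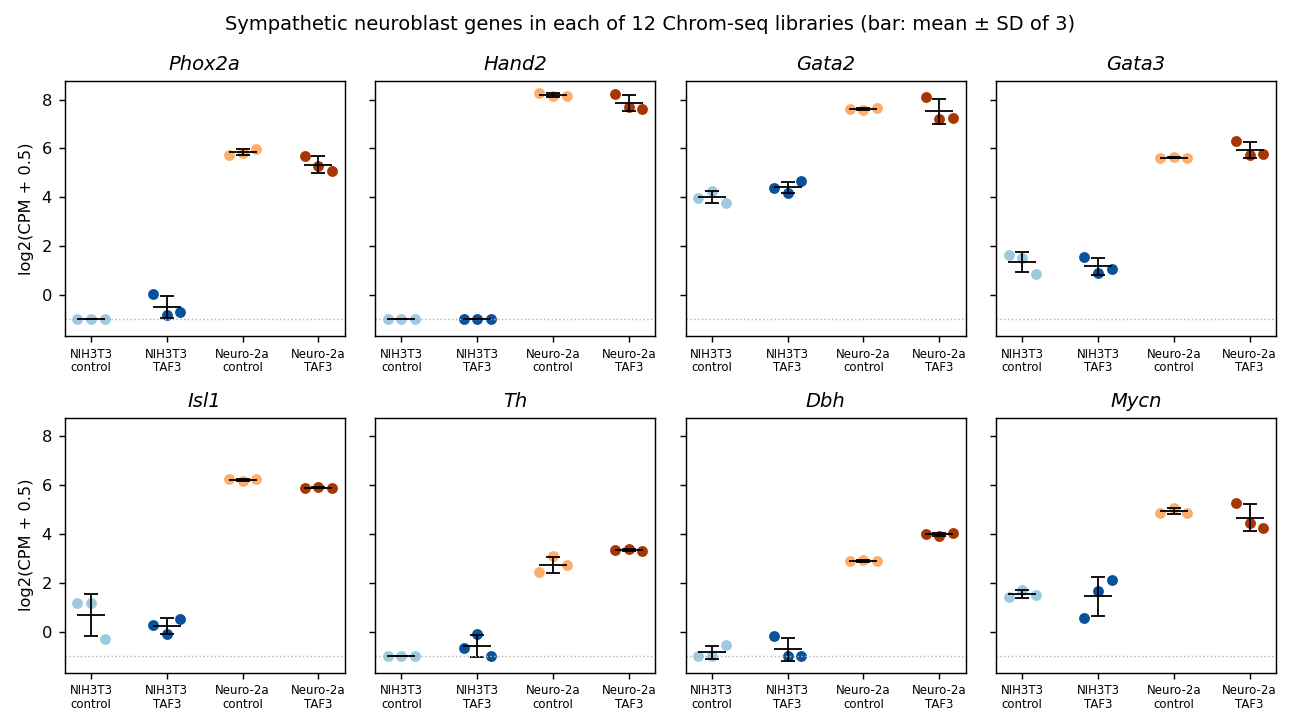
Level of each member in each library, as log2(CPM + 0.5), in the 4 groups; points are libraries, black bars the mean ± SD of 3, and the dotted line is a count of 0. All Neuro-2a libraries lie above all NIH3T3 libraries for every member, and Hand2 sits at 0 in the 6 NIH3T3 libraries.

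Divided by the exon length of each gene, which sets genes on one scale, the order in the Neuro-2a controls was Hand2 at 125 CPM per kb of exon, Gata2 at 36.5, Phox2a at 28.1, Isl1 at 18.8, Gata3 at 12.3, Mycn at 9.20, Th at 2.67 and Dbh at 2.59. Neighbours in this order did not overlap between libraries except Th and Dbh, whose ranges overlapped. In the NIH3T3 controls the order was Gata2 at 2.90, Mycn at 0.737, Gata3 at 0.528 and Isl1 at 0.325 CPM per kb of exon, and Gata3 overlapped with Isl1. Gata3 was divided by its full exon length although its count leaves out the bases shared with 9230102O04Rik, so its place could be too low. Counting ran over whole gene spans, so intronic reads enter these levels. Per kb of span the first 4 places in the Neuro-2a controls were the same, while Mycn stood above Gata3 and Dbh above Th. With the reader, Dbh at 5.71 CPM per kb of exon stood above Th at 4.07, and their libraries did not overlap.

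With the TAF3 reader the difference between the lines was called for the same 8 genes, where 23.0% of 20112 tested genes were higher in Neuro-2a and 26.5% were lower. Hand2, Th and Dbh again passed the filter through Neuro-2a alone and had to differ. The log2 difference was 3.21 ± 0.25 for Gata2, 5.12 ± 0.26 for Gata3, 6.40 ± 0.23 for Isl1 and 3.40 ± 0.43 for Mycn (SE, n = 3 against 3). Their edgeR adjusted p values were between 2.0e-09 and 4.7e-05. In NIH3T3, 3 members had a few counts with the reader, and none of them was tested for capture there. Phox2a had 8, 1 and 2 counts in the NIH3T3 TAF3 libraries, Th had 2, 7 and 0, and Dbh had 6, 0 and 0, against 0, 0 and 3 in the controls. These counts were spread unevenly over the replicates.

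TAF3 capture of these genes in Neuro-2a was mixed, and 1 of the 8 was called. Dbh was higher with the reader, with 15.3, 14.6 and 16.2 CPM against 6.85, 7.17 and 6.87 CPM in the controls. The log2 fold change was 1.16 ± 0.16 (SE, n = 3 against 3, edgeR adjusted p = 0.0098), and the groups were apart by more than their spread of 0.785 and 0.178 CPM (SD). Of 17006 genes tested, 1.01% were called higher and 0.0235% lower. The members had a median log2 fold change of -0.10 against 0.031 for all tested genes, and of -0.35 against 0.0085 without TAF3 replicate 1. In that fit it was -0.33 for the paralogs of the members, -0.32 for other sympathoadrenal transcription factors and -0.28 for neuronal markers. It was 0.088 for fibroblast markers and 0.57 for Schwann cell precursor markers. A median below 0 was thus not particular to the members. Leaving out any 1 of the 3 Neuro-2a control libraries ended the call for Dbh, with log2 fold changes of 1.15, 1.19 and 1.15 and adjusted p values of 0.0867, 0.0671 and 0.0787, and so did a single fit over the 4 mouse groups (adjusted p = 0.0706). Without the deviating TAF3 replicate 1 the value was 1.16 with an adjusted p of 8.5e-06.

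**Figure D2:**
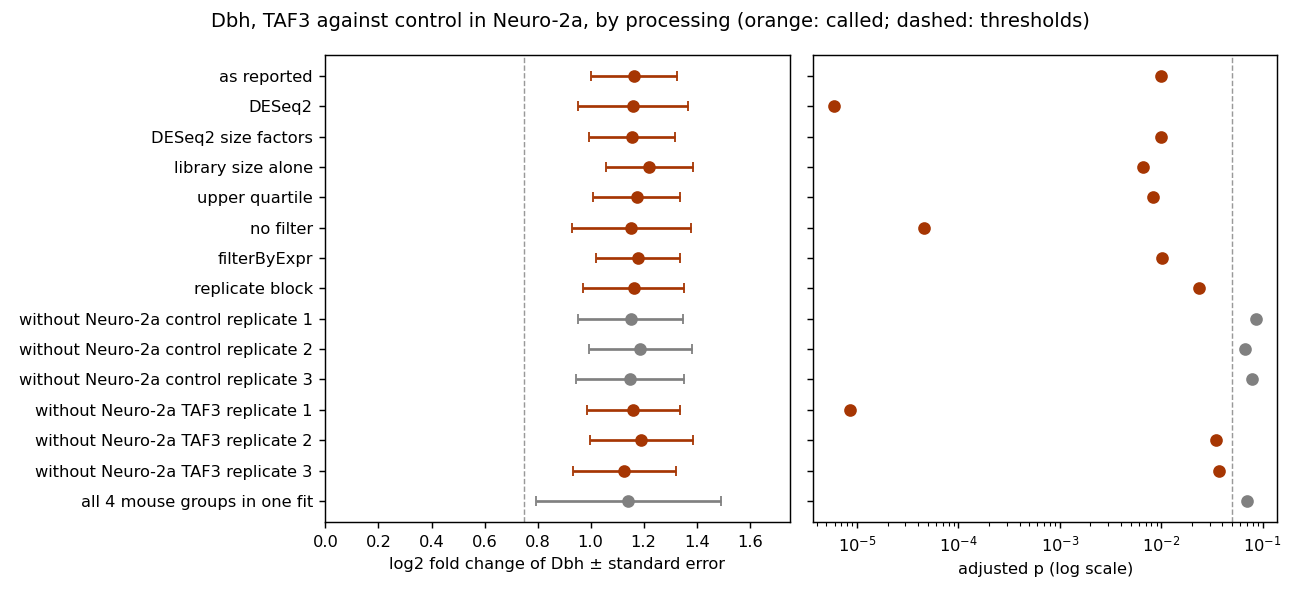
Log2 fold change of Dbh with its SE (left) and edgeR or DESeq2 adjusted p on a log axis (right) for TAF3 against control in Neuro-2a, as reported and under each alternative; dashed lines are the thresholds. The fold change stays between 1.13 and 1.22, while the adjusted p crosses 0.05 under 4 of the 14 alternatives.

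The antisense transcript Dbhos starts 2530 bases from Dbh on the other strand. It had 13 counts over the Neuro-2a controls and 56 over the TAF3 libraries, and it was not called (log2 fold change 2.16, adjusted p = 0.145), nor was it without TAF3 replicate 1 (1.72, adjusted p = 0.123). The deposited counts appear to separate the strands. Of protein-coding genes nested in opposite-strand genes 20.2% had no count, against 14.4% of those that are not nested. Their median summed count was lower, however, at 41 against 975.5.

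Th, the other enzyme gene, was at 9.64, 9.94 and 9.26 CPM with the reader against 4.91, 7.95 and 6.07 CPM in the controls. The groups did not overlap, but the log2 fold change of 0.63 ± 0.22 was not called (edgeR adjusted p = 0.196). The annotated span of Th in the tables is 38377 bases, longer than its RefSeq gene, so where along it the reads fell is not given by a count.

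The transcription factors had values at or below 0 in Neuro-2a except Gata3, and none was called. Phox2a was at 51.8, 37.9 and 32.8 CPM with the reader, a log2 fold change of -0.46 ± 0.17 (adjusted p = 0.221). Hand2 was at 299, 205 and 198 CPM, a log2 fold change of -0.31 ± 0.15 (adjusted p = 0.357). Isl1 was at 58.6, 59.7 and 58.3 CPM, all below its controls at 71.9 to 76.1 CPM, a log2 fold change of -0.31 ± 0.097 (adjusted p = 0.153). Gata2 was at 275, 147 and 152 CPM, on both sides of its controls at 192 to 201 CPM, with a log2 fold change of -0.019 ± 0.21 (adjusted p = 0.98). Gata3 was at 78.1, 52.7 and 53.6 CPM against controls of 47.7 to 50.3 CPM, a log2 fold change of 0.35 ± 0.16 (adjusted p = 0.322). Mycn was at 38.4, 21.5 and 18.7 CPM against controls of 28.8 to 33.2 CPM, with a log2 fold change of -0.19 ± 0.25 (adjusted p = 0.75). Replicate 1 was the highest of the TAF3 libraries for Phox2a, Hand2, Gata2, Gata3 and Mycn, and for Isl1 and Th it lay between the others.

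Without that library, 6 factors and enzymes other than Dbh passed an adjusted p of 0.05, but none reached the log2 fold change of 0.75. Of all 16940 genes tested in that fit, 7.67% were higher and 8.64% lower at the adjusted p alone. The values below 0 were -0.68 ± 0.10 for Phox2a, -0.58 ± 0.13 for Mycn, -0.53 ± 0.063 for Hand2, -0.38 ± 0.064 for Gata2 and -0.32 ± 0.081 for Isl1. Th stood at 0.63 ± 0.21 and Gata3, which did not pass, at 0.13 ± 0.089. The value of Gata2 in Neuro-2a was near 0 with all libraries and moved with single libraries and the scaling, to 0.13 without TAF3 replicate 2 or replicate 3 and to 0.036 on library size alone. Leaving out TAF3 replicate 3 turned Mycn to 0.0085.

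**Figure D3:**
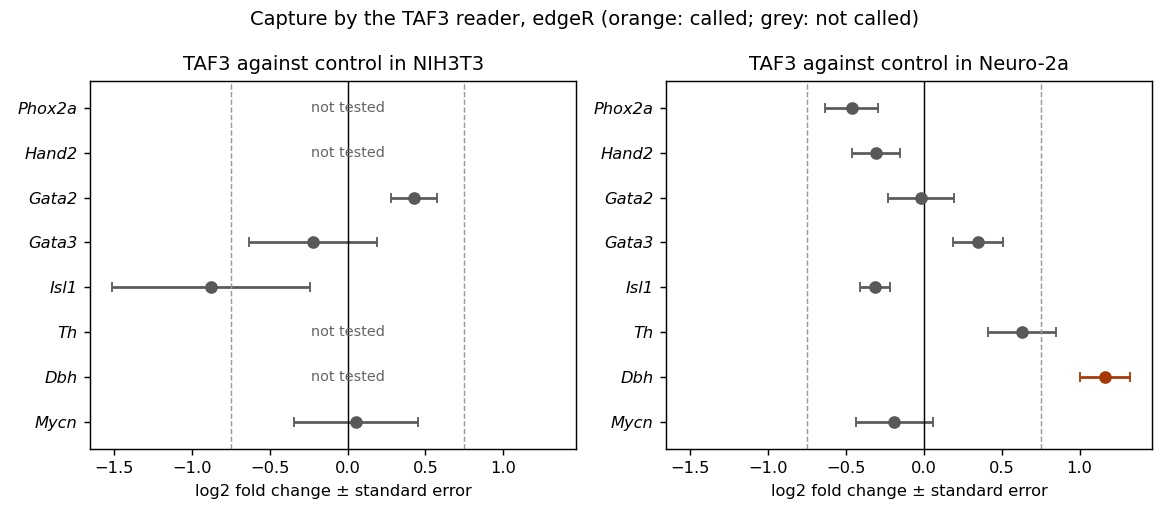
Log2 fold change of TAF3 against control for each member, with its SE, in NIH3T3 (left) and Neuro-2a (right); dashed lines mark 0.75 in either direction, and members under the count filter are marked as not tested. Dbh in Neuro-2a is the point past the threshold and called.

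In NIH3T3, 4 of the 8 members passed the count filter and none was called, where 10.7% of 19220 tested genes were higher with the reader and 0.375% were lower. By DESeq2 none of the 4 was called either. In edgeR 6522 of the 19220 tested genes had an unadjusted p under 0.05, and so did 1 of the 4. That gene was Gata2, at 20.2, 17.7 and 24.7 CPM with the reader against 15.0, 18.7 and 13.3 CPM, a log2 fold change of 0.42 ± 0.15 that passed the adjusted p (0.0376) but not the fold threshold, and the groups overlapped. Gata3 was at 2.45, 1.35 and 1.57 CPM (log2 fold change -0.22 ± 0.41), Isl1 at 0.709, 0.431 and 0.933 CPM (-0.88 ± 0.63) and Mycn at 0.966, 2.71 and 3.79 CPM (0.053 ± 0.40), and the SE of each was large beside its value. Phox2a, Th and Dbh stayed under the filter with the counts given above. In a fit over the 4 groups Phox2a entered and was called higher (adjusted p = 0.0456), on 11 counts against 0, and with no filter it was not called (adjusted p = 0.14).

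The difference in capture between the lines, tested as an interaction over 12 libraries, was not called for any of the 8 members. At that rule 0.718% of 19509 tested genes were higher in Neuro-2a and 2.33% were lower. In edgeR 2691 of the 19509 genes had an unadjusted p under 0.05. Among them were 2 members, Phox2a and Th, which passed the filter through Neuro-2a alone. By DESeq2, 1 member was called, Phox2a (adjusted p = 0.0063), against 0.0687 in edgeR. Its NIH3T3 side is 11 counts against 0. For the 4 members that passed the filter on NIH3T3 alone, the differences were -0.46 ± 0.28 for Gata2, 0.56 ± 0.34 for Gata3, 0.54 ± 0.46 for Isl1 and -0.27 ± 0.47 for Mycn (log2, Neuro-2a minus NIH3T3). That of Dbh was 0.27, with an SE above that value, on 3 and 6 NIH3T3 counts. Without Neuro-2a TAF3 replicate 1, that of Gata2 became -0.82 and was called (edgeR adjusted p = 3.3e-04). In that fit 2 members were called, the other being Phox2a, on the same 11 counts against 0 in NIH3T3. Of all 19584 genes tested there, 217 were called higher and 637 lower.

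Several transcripts lie beside the members. Hand2os1, which runs antisense over 89.0% of the Hand2 span, was at 154 ± 11.1 CPM in the Neuro-2a controls and 110 ± 15.9 CPM with the reader, and had 0 and 4 counts over the NIH3T3 groups. Its log2 fold change with the reader, -0.46, was not called (adjusted p = 0.0996), and without TAF3 replicate 1 it was -0.35, past the adjusted p (3.7e-04) and under the fold threshold. The lincRNA Gm38708, whose start lies 3210 bases from that of Gata2, was at 5.69 ± 0.698 CPM in the Neuro-2a controls and 0.276 ± 0.108 CPM in the NIH3T3 controls. The antisense genes within Gata3 were 4930412O13Rik, at 9.71 ± 0.999 CPM, and Gm13256, at 1.52 ± 0.157 CPM in the Neuro-2a controls. Inppl1, which meets the end of Phox2a over 95 bases on the other strand, was at 104 ± 2.66 CPM in Neuro-2a controls and 144 ± 3.73 CPM in NIH3T3 controls.

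Of 9 paralogs of the members, 6 were tested between the lines, 4 were higher in Neuro-2a (25.2% of all tested genes) and 1 was lower (26.5% of all). The GATA factors divided between the lines. Gata4 was higher in Neuro-2a, at 60.3 ± 8.22 against 22.9 ± 3.20 CPM, and Gata6 was at 5.63 ± 1.03 CPM in NIH3T3 controls with no count in Neuro-2a controls. Gata1, Gata5 and Hand1 were below the filter. Isl2 was higher in Neuro-2a by a log2 difference of 1.15 ± 0.29. Within the MYC family Myc was at 151 ± 8.30 CPM in Neuro-2a and 198 ± 17.7 CPM in NIH3T3 controls, a log2 difference of -0.39 under the fold threshold, while Mycl was at 1.56 ± 0.258 against 0.232 ± 0.237 CPM and was called higher.

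Of 18 other sympathoadrenal transcription factors and cofactors, 13 were tested between the lines (median log2 difference 3.19). Of these, 8 were higher in Neuro-2a (25.2% of all tested genes) and 2 were lower (26.5% of all). The largest were Sox11 at 74.3 ± 1.35 CPM and Lmo1 at 65.2 ± 1.66 CPM, both at 0 in the NIH3T3 controls. Eya1 was lower, by a log2 difference of -6.23.

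Of 18 genes of catecholamine synthesis, storage and turnover other than Th and Dbh, 15 were tested (median 2.29). Of these, 8 were higher in Neuro-2a (25.2% of all tested genes) and 2 were lower (26.5% of all). The granins of the secretory vesicle led them, with Chgb at 2012 ± 68.7 CPM and Chga at 353 ± 15.6 CPM in Neuro-2a controls. Maoa, a monoamine oxidase, was at 55.0 ± 5.44 CPM in NIH3T3 controls, and the noradrenaline transporter Slc6a2 at 0.831 ± 0.385 CPM, and neither had a count in the Neuro-2a controls. Ddc, the decarboxylase between Th and Dbh in the pathway, was at 0.446 ± 0.225 CPM in the Neuro-2a controls and was not called (adjusted p = 0.0514); it was chosen after its values were seen. With the reader in Neuro-2a, 13 of these genes were tested and none was called, by edgeR. An unadjusted p under 0.05 was found for 4 of them and for 2760 of all 17006 tested genes. Without TAF3 replicate 1, 13 were tested and none was called. In that fit the medians of the lists with 2 or more tested genes lay between -0.35 and 0.57, the highest being that of the 2 tested Schwann cell precursor markers.

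**Figure D4:**
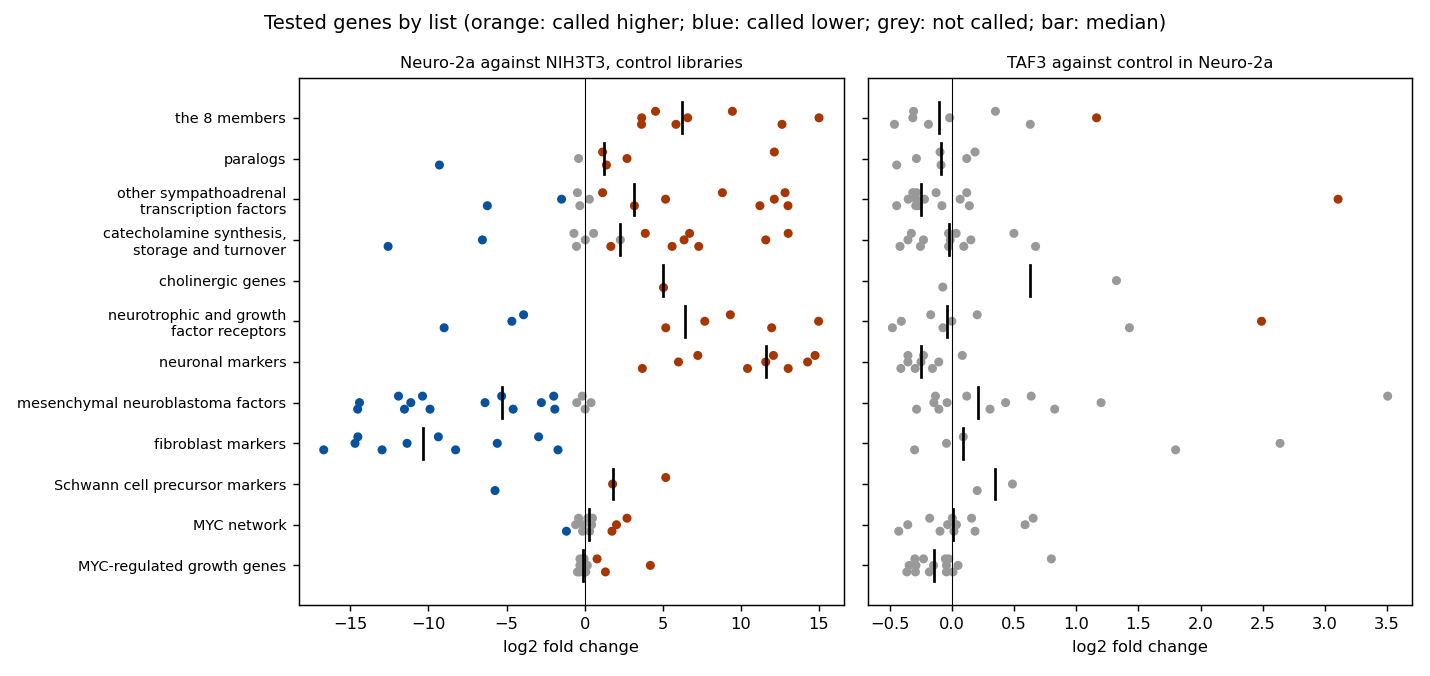
Log2 fold change of the tested genes of each list, between the lines in control libraries (left) and with TAF3 in Neuro-2a (right); each point is a gene, the bar is the list median, and fitted values of genes at 0 in one group depend on a prior count and are no bound. In the left panel the members and the neuronal markers lie above 0, the fibroblast markers below 0, and the mesenchymal factors have a median of -5.31; in the right panel the medians of all lists but the cholinergic pair stay within 0.35 of 0 with all libraries.

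Against 25.2% of all tested genes higher in Neuro-2a and 26.5% lower, the receptors of the lineage split by line. Of 8 tested, 5 were higher in Neuro-2a, led by the neurotrophin receptor Ngfr at 290 ± 50.6 CPM and the GDNF receptor Ret at 459 ± 3.59 CPM, and 3 were lower, with Erbb2 and Gfra2 at log2 differences of -8.99 and -4.66. Of 9 neuronal markers tested, all 9 were higher (median 11.59, or 11.46 with genes at 0 set to their bound), among them Uchl1 at 247 ± 20.5 CPM and Elavl4 at 178 ± 2.35 CPM. Of 17 tested genes of the mesenchymal neuroblastoma state, 13 were lower in Neuro-2a and none higher (median -5.31), led by Prrx1 at 868 ± 11.4 CPM and Twist2 at 196 ± 6.11 CPM in NIH3T3 controls. All 10 fibroblast markers were lower (median -10.37, or -9.56 at their bounds), with Col1a2 and Thy1 at 957 ± 64.0 and 239 ± 12.6 CPM in NIH3T3 controls and no count in Neuro-2a controls. Of 3 tested Schwann cell precursor markers, 2 were higher and 1 was lower, and Erbb3 was among the higher, at 9.57 ± 1.48 against 0.256 ± 0.138 CPM. Ache was the 1 cholinergic gene of 4 with enough counts and was higher, at 18.8 ± 2.68 against 0.571 ± 0.258 CPM.

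Genes around Mycn are set beside all tested genes, of which 25.2% were higher in Neuro-2a and 26.5% lower. In the MYC network 12 genes were tested, 3 were higher (Mycl, Mxd4 and Mxd3) and Mycbp was lower, with a median log2 difference of 0.26. Of 14 growth genes known to be MYC-regulated, 3 were higher, Tert, Srm and Odc1, by log2 differences of 4.21, 1.33 and 0.80, and none was lower. Their median of -0.075 was near that of all genes. In both lists the count called higher was near the share over all genes.

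The genes whose levels over the 12 libraries were most like those of each member were found by the root mean square difference between centred log2(CPM + 0.5) profiles, among 11899 other genes. For Dbh these were Gucy1a1 and Ablim3, at a difference of 0.31 each. The nearest to Phox2a were Mfap2 and Cdh22 (0.17 and 0.22), to Hand2 Dscaml1 and Bex2 (0.18 and 0.20), to Gata2 Cul9 and Mical1 (0.14 and 0.17) and to Isl1 Fry and Dapk1 (0.26 and 0.27). Gata3 was nearest to 9930014A18Rik and Tubg2 (0.24 and 0.25), Th to 5430401H09Rik and Gm12609 (both 0.24), and Mycn to Tcf7 and Cers1 (0.21 and 0.26). The gap between the lines makes up most of each profile.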

How the data were processed

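Chrom-seq libraries of NIH3T3 and Neuro-2a cells were used, and the human tables of the series were not used here. The authors trimmed reads with fastp 0.23.1, aligned them with HISAT2 2.1.0 to mm10 and counted them with featureCounts 2.0.1 on GENCODE genes, and they deposited raw read counts per gene without normalization. The length column equals the span of each gene, so reads over introns count. Counts were tested here with edgeR 4.0.16 (quasi-likelihood, TMM, Benjamini-Hochberg over all tested genes) on genes with a summed count above 18 over 6 libraries or 36 over 12. The alternatives were DESeq2 1.42.0, other scalings and filters, a replicate block, 1 fit over all groups and leaving out each library. For neighbours, lists and other named genes, leaving out Neuro-2a TAF3 replicate 1 was added after seeing the data. Exon lengths came from GENCODE M21 on GRCm38 and windows from RefSeq GRCm38.p6. The scripts were tested on simulated data. The text names the members, their neighbours, the paralogs and, per list, the genes with the 2 largest called differences each way between lines. Members and lists were chosen with earlier results of these data known. Deviations of same-numbered libraries were only weakly correlated (-0.03 to 0.06). Some genes that this rule names are not reported here.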

Additional observations from a re-analysis of the deposited data

Results flagged for a closer look

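Among the genes named above, 5 differed in TAF3 capture between the lines by the interaction test over 12 libraries (edgeR quasi-likelihood, Benjamini-Hochberg over 19509 genes), and none of them is a member. Taken as the log2 capture effect in Neuro-2a less that in NIH3T3, it came to -6.72 for Elavl4 (adjusted p = 5.3e-04) and -6.11 for Ngfr (adjusted p = 0.0261), both of which had no count in the NIH3T3 controls, so that these fitted values are no bound. It was -3.28 for Ret (adjusted p = 0.0021). It was 2.68 for Eya1 (adjusted p = 0.001) and 2.64 for Gfra2 (adjusted p = 4.6e-05). Eya1 was at 2.85 ± 0.853 CPM with the reader against 0.316 ± 0.242 CPM in Neuro-2a, and Gfra2 at 6.55 ± 1.70 against 1.19 ± 0.319 CPM, each the line in which the gene is low. Ret was at 0.812 ± 0.201 against 0.105 ± 0.181 CPM in NIH3T3. Without Neuro-2a TAF3 replicate 1, an alternative chosen after seeing the data, all 5 were still called, at -6.64, -6.34, -3.26, 2.89 and 2.41 for Elavl4, Ngfr, Ret, Eya1 and Gfra2. The 5 genes were named for large differences between the lines in the control libraries. Those libraries enter the interaction with the opposite sign, so the naming rule itself favours the signs found here. The calls are therefore no independent support. Lineage receptors not named above were also called, such as Ntrk3 (-3.12), and of the 10 tested 1 was higher and 4 were lower. Of all 19509 genes 0.718% were higher and 2.33% lower.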

How the results depend on the processing

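Between the lines, Gata2, Gata3, Isl1 and Mycn kept their calls under each of the 14 alternatives, in control and in TAF3 libraries. Phox2a, which passed the filter on NIH3T3 alone in the TAF3 libraries, kept its call there. The remaining calls between the lines also held, but the filter had fixed them in advance. The counts that follow include them. Of 150 counts of members called under an alternative, 141 were the same and 9 moved. For TAF3 in Neuro-2a, 0 to 1 members were called when a library was left out, and 0 in a fit over the 4 groups, where Dbh was lost. For TAF3 in NIH3T3, 1 member was called higher in that fit, Phox2a. For the difference in capture, 1 member was lower by DESeq2 and with no filter, and between 0 and 2 with single libraries removed. Of 468 log2 fold changes of members, 454 kept direction and side of the threshold, 4 were lost, 1 was gained and 9 turned, all in values that were not called. These values leave out the difference in capture of Phox2a, Hand2, Th and Dbh, whose NIH3T3 controls held 3 counts or fewer, and that of Dbh ran from -2.72 to 4.13 without single libraries. Those that turned were Mycn in NIH3T3 at -0.088 with the replicate block and -0.38 to 0.43 without single libraries, Gata2 in Neuro-2a at 0.036 on library size alone and -0.38 to 0.13 without single libraries, Mycn in Neuro-2a at -0.58 to 0.0085, and Mycn in the difference at -0.65 to 0.17. The cause of these was not tested. The replicate block gave Dbh 1.16 in Neuro-2a with an adjusted p of 0.0236 and changed no call. Same-numbered libraries were not paired by the labels, and their deviations correlated at -0.03 to 0.06, with 3 of 3 best with their own number in Neuro-2a and 1 of 3 in NIH3T3. Between the lines, 3 of 3 were best with their own number in the control libraries and 0 of 3 in the TAF3 libraries. Genes called higher in Neuro-2a with the reader numbered 172 as reported, 389 by DESeq2, 489 with no filter, 445 in a fit over the 4 groups and 41 to 565 without single libraries, the highest without TAF3 replicate 1. Phox2a, Th, Dbh and Hand2 had counts at or near 0 in NIH3T3, so capture there could not be measured for them.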
